A study of Saccharomyces cerevisiae with 24 samples.

Results

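The genes described here encode the DNA replication fork machinery of budding yeast. They are 34 genes of the 7032 features measured, taken by systematic name from a list made with earlier results of these data known. They cover DNA polymerases alpha, delta and epsilon with primase, the sliding clamp PCNA and its loader RFC, the single-strand binding protein RPA, the flap nuclease and ligase of lagging-strand synthesis, GINS and its partners SLD2, SLD3 and DPB11, the fork factors CTF4, TOF1, MRC1 and CSM3, and the kinase CDC7 with its regulator DBF4. Each of the 34 names matched the annotation of genome build R64 and passed the filter on low counts, which left 6402 genes tested.

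At a replication fork a helicase opens the DNA, RPA coats the single strands, polymerase alpha with primase lays down primers, and polymerases epsilon and delta extend the leading and lagging strands while held by PCNA. In budding yeast many fork genes are transcribed in a pulse late in G1, when the factors MBF and SBF bind short sequences called MCB and SCB upstream of their targets. Other fork proteins are encoded by genes whose RNA varies little through the division cycle.

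The libraries came from the diploid wild-type strain BY4743 grown in rich YPD medium. Small G1 cells were isolated by centrifugal elutriation, a separation by size, then cultured until they reached a chosen size, stopped with cycloheximide and sodium azide, frozen and pooled with cells of like size. Total RNA of 24 pools was depleted of rRNA and sequenced, giving 8 size groups of 3 libraries each, named 40, 45, 50, 55, 60, 65, 70 and 75 fL after the nearest multiple of 5 fL (the 67.5 fL library is replicate 1 of the 70 fL group). All groups share the strain, the medium and the arrest, and differ in the labelled size. Within this design cell size cannot be told apart from time in culture or from stage of the division cycle, and every library mixes several cultures.

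Total counts ran from 16103753 to 24408547 per library. URA3 and LEU2, which BY4743 lacks, had 0 counts in each of the 24 libraries, which allows at most 0.197 CPM (reads of a gene relative to the library's scaled total) in any of them (3 counts per library, counting error only). A gene that diploid cells repress, the pheromone receptor gene STE2, was not at 0. It stood at 18.9 ± 0.382 CPM at 40 fL and 7.21 ± 0.894 CPM at 75 fL (SD, n = 3). Of the 9 haploid-specific genes 8 were called lower at 60 than at 40 fL, where 34.2% of all tested genes were. The remaining haploid-specific gene was not called, with a log2 change of 0.27. Their part in the results was not tested. There were 5 libraries that stood apart, each on average at least 1.4 times as far from its mates as the mates were from each other: replicate 1 at 40 and 70 fL, replicate 2 at 50 and 55 fL, and replicate 3 at 45 fL. Levels below are CPM scaled by TMM factors, a share of each library, so that fewer cells expressing a gene and less RNA per cell cannot be told apart. Changes are log2 differences ± SE from edgeR's quasi-likelihood test on all 24 libraries, and a gene is called at a Benjamini-Hochberg adjusted p under 0.05 over the 6402 genes.

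Most fork genes were at their lowest in the smallest cells and at their highest at 60 fL. Of the 34 genes 27 had their lowest group mean at 40 fL and 25 had their highest at 60 fL. The share of all tested genes with these extremes was not counted. With deposited TPM the lowest means of PRI1, DPB3, RFC1, RFC2, PSF2 and DBF4 lay at sizes other than 40 fL. The highest mean of DBF4 then lay at 45 fL. The mean over the 34 genes, on the log2 scale and relative to 40 fL, was 0.75 ± 0.26 at 45 fL, 1.03 ± 0.43 at 50 fL, 0.94 ± 0.06 at 55 fL, 1.46 ± 0.05 at 60 fL, 0.92 ± 0.05 at 65 fL, 0.78 ± 0.10 at 70 fL and 0.89 ± 0.15 at 75 fL (SD, n = 3 libraries). The 3 libraries at 60 fL, at 1.4, 1.49 and 1.49, lay above each of the other 21. The 50 fL group was the most uneven, with 0.54 in replicate 2 against 1.2 and 1.36 in the other replicates. Over the 8 sizes together 32 of the 34 genes were called as varying, where 79.6% of all tested genes were. The remaining genes were RFC2 (adjusted p = 0.433) and SLD3 (adjusted p = 0.0995).

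**Figure D1:**
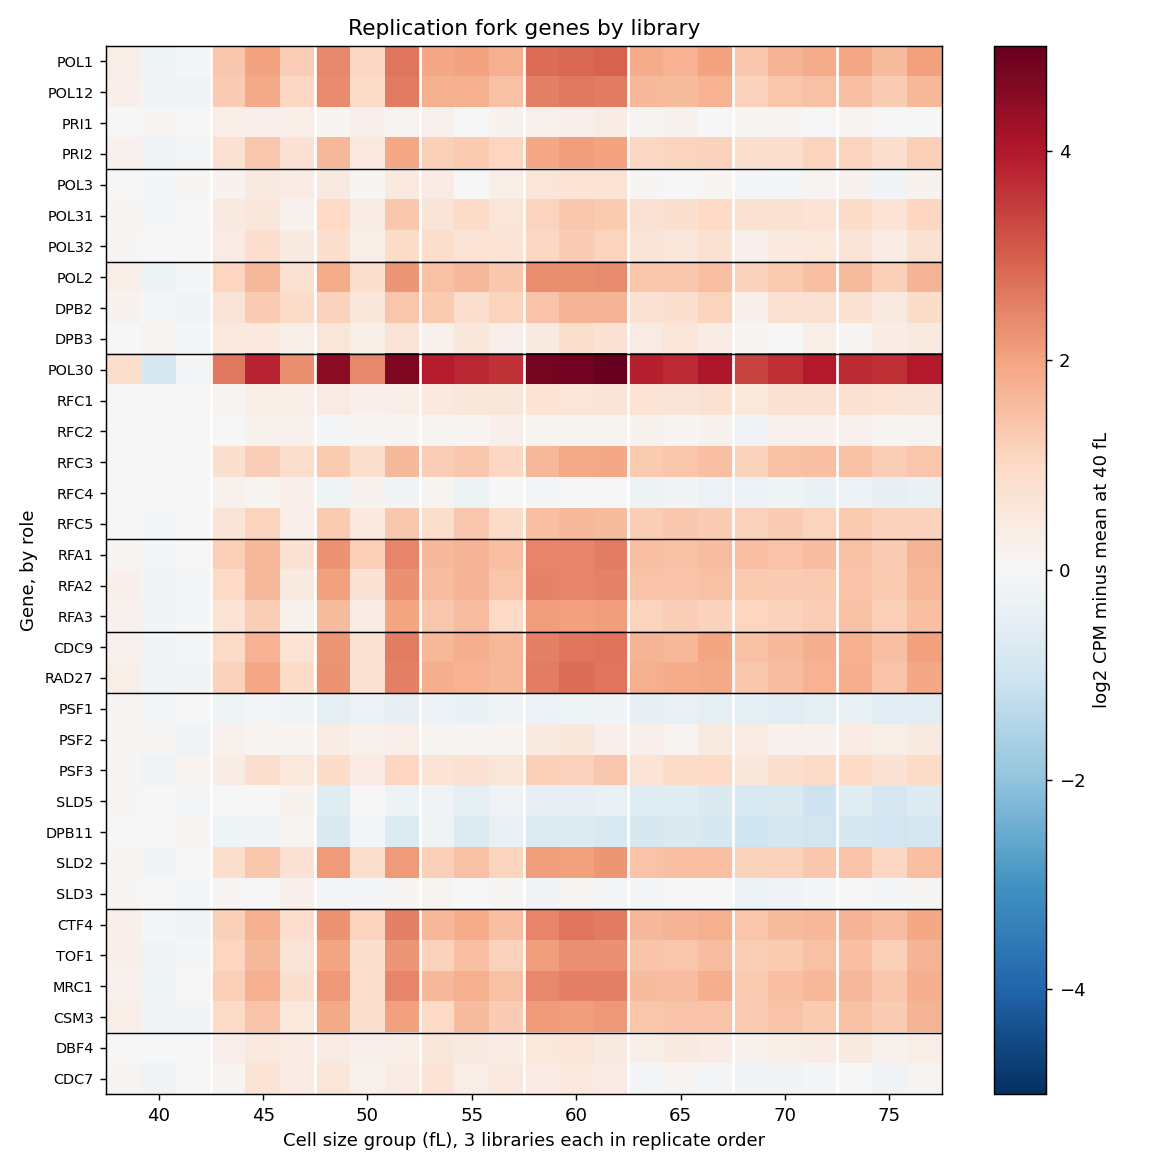
Level of each of the 34 genes (rows, grouped by role) in each of the 24 libraries (columns, ordered by size group), as log2 CPM minus the gene's mean at 40 fL. For 25 genes the 60 fL group has the highest mean, though in some, such as CTF4, a single 50 fL column exceeds a single 60 fL column. In most rows 50 fL replicate 2 is paler than its replicates, and DPB11, SLD5 and PSF1 run the other way.

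Between 40 and 60 fL 28 of the 34 genes were called higher and 3 lower, where 30.9% of all tested genes were called higher and 34.2% lower. The 60 fL group was chosen with earlier results of these data known, so a rise up to it is partly given by that choice. The median change of the 34 genes was 1.60 on the log2 scale, beside -0.04 for all tested genes. The largest rises were in POL30 (4.73 ± 0.52), which encodes PCNA, POL1 (2.86 ± 0.30), which encodes the catalytic subunit of polymerase alpha, and RAD27 (2.68 ± 0.32), which encodes the flap nuclease. DPB11 (-0.70 ± 0.14) and SLD5 (-0.37 ± 0.13) fell furthest. DPB11 is a scaffold that brings replication factors together at origins, and SLD5 is a subunit of GINS, a part of the helicase. When libraries were scaled by their totals alone the median of all genes moved to -0.29, and 25 fork genes were called higher and 5 lower. With deposited TPM 22 were called higher and 6 lower, beside 1059 and 3636 of all genes.

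The upstream sequences of these 5 genes, the 3 largest rises and the 2 furthest falls, are shown for the MCB and SCB letters they hold. PSF1, the remaining gene called lower, is not shown, and its window holds an SCB and no MCB. Each is the 300 bases before the annotated start codon, 5′ to 3′ on the strand of the gene, read from the RefSeq sequence of build R64. Capitals mark the MCB letters ACGCGT, which read the same on both strands, and the SCB core CGCGAAA, searched on both strands. Other forms of these sites were not searched, so a window without capitals can still hold one.
POL30 promoter, chrII:425767-426066, minus strand: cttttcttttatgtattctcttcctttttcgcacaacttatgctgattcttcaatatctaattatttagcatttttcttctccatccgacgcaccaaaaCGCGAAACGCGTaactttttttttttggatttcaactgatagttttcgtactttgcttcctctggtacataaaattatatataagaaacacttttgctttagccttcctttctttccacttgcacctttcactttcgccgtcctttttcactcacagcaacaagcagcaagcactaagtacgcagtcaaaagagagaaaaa
POL1 promoter, chrXIV:429787-430086, plus strand: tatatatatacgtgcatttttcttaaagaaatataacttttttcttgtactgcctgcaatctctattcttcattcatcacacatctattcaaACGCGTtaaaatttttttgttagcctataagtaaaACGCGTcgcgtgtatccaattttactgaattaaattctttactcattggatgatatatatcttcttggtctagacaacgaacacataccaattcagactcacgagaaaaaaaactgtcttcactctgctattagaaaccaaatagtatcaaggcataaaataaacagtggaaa
RAD27 promoter, chrXI:225876-226175, minus strand: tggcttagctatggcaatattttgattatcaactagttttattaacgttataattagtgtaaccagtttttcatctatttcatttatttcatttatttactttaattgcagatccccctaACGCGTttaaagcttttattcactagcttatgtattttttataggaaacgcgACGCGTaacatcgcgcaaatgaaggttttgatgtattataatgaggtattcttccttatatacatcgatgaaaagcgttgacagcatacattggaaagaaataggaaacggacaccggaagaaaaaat
SLD5 promoter, chrIV:1430712-1431011, plus strand: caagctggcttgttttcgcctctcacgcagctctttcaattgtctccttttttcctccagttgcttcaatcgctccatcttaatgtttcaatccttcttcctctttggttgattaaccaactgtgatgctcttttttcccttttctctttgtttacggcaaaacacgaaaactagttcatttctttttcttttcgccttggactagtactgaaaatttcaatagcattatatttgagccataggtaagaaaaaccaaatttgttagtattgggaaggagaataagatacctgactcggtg
DPB11 promoter, chrX:265052-265351, minus strand: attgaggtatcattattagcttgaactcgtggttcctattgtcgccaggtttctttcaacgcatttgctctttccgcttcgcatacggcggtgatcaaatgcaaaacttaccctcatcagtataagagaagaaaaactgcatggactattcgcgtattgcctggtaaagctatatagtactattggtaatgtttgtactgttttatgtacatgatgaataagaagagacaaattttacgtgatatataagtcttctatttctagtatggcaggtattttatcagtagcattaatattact
The POL30 window holds 1 MCB and 1 SCB that share a base, an arrangement found 2 times among all 6001 protein-coding promoters. The POL1 and RAD27 windows hold 2 MCB each. The SLD5 and DPB11 windows hold neither set of searched letters, and 78 bases of the SLD5 window lie inside a neighbouring gene. The SLD5 window does hold cacgaaa, which differs from the searched SCB core in a single base and was not counted. Absence from the window says nothing of the factors themselves.

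Over the whole set 21 of the 34 genes (61.8%) had an MCB in the window, where 3.48% of the 6001 promoters did. An SCB core stood in 6 of the 34 (17.6%), where 3.95% of all promoters held one. Of the 21 genes that rose by at least 1 on the log2 scale from 40 to 60 fL, 18 (85.7%) had an MCB, and of the other 13 genes 3 (23.1%) did, namely POL3, RFC4 and DBF4. The 3 risers without one were RFA3, RFC3 and RFC5. The SCB core was not split in this way: it stood in 4 of the 21 (19%) and in 2 of the other 13 (15.4%). At least 2 MCB stood in the windows of 7 genes, POL1, POL12, RFA1, RFA2, RAD27, TOF1 and MRC1, and in 23 of all promoters (0.383%). The 28 MCB of these genes began 72 to 240 bases before the start codon, with a median of 136, and 23 of them began between 100 and 200 bases before it.

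The median change from 40 to 60 fL was 0.43 for the 13 fork genes with no MCB, 1.82 for the 14 with 1 and 2.48 for the 7 with at least 2. Among the other tested genes the medians in the same order were -0.05 (5589 genes), 0.70 (170 genes) and 2.34 (16 genes). So the order from none to several was alike inside and outside the set. Every fork gene with at least 2 MCB rose, by 2.23 to 2.86, whereas those with 1 ran from -0.03 for RFC4 to 4.73 for POL30. These are matches of letters, given as a description and without a test.

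**Figure D2:**
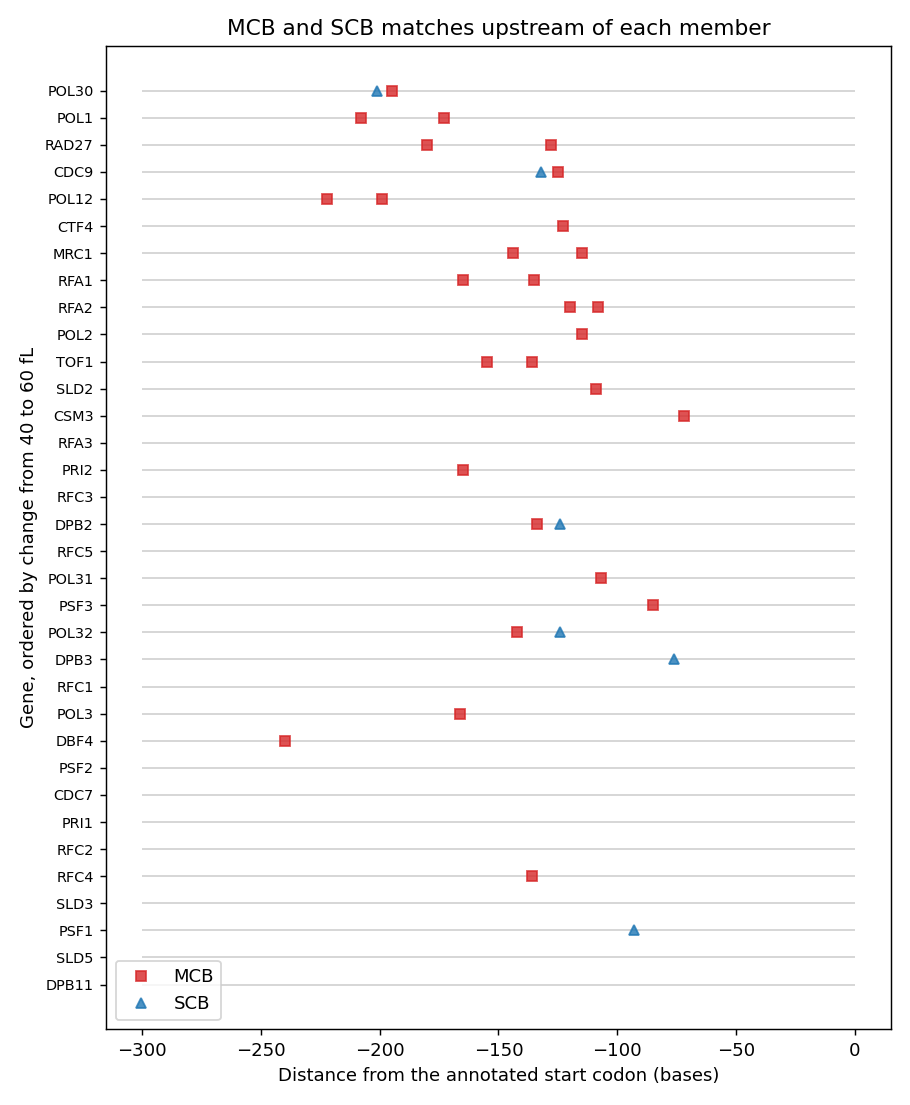
Position of MCB (squares) and SCB (triangles) matches in the window before the start codon of each of the 34 genes, in bases from the start codon, with genes ordered by their change from 40 to 60 fL. MCB matches crowd the upper rows, with 18 of the 21 genes that rose by at least 1 holding one and 3 of the other 13, while SCB matches stand in 4 of the 21 and 2 of the 13.

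DNA polymerase alpha and primase start each new strand. Its genes POL1 (YNL102W, catalytic subunit), POL12 (YBL035C, regulatory subunit) and PRI2 (YKL045W, large primase subunit) rose together from 40 to 60 fL, while PRI1 (YIR008C, small primase subunit) rose far less. POL1 stood at 80.4, 56.0 and 61.9 CPM at 40 fL, at 455, 482 and 503 CPM at 60 fL and at 249, 196 and 269 CPM at 75 fL. The 3 sizes did not overlap, and the 75 fL libraries lay between the other groups. The 50 fL libraries of POL1 spanned 346, 136 and 419 CPM, with replicate 2 far below its replicates. PRI1 stood at 41.9, 43.8 and 41.8 CPM at 40 fL, at 49.7, 51.3 and 54.9 CPM at 60 fL and at 45.6, 42.4 and 43.3 CPM at 75 fL. Its 60 fL libraries lay just above those at 40 and 75 fL, which overlapped. The highest group mean of PRI1 was at 45 fL. The changes from 40 to 60 fL were 2.86 ± 0.30 for POL1 (adjusted p = 1.13e-06), 2.58 ± 0.29 for POL12 (1.99e-06), 2.02 ± 0.25 for PRI2 (4.04e-06) and 0.29 ± 0.07 for PRI1 (0.00165). The rise of PRI1 turned to -0.12 with deposited TPM, and its call ended with library totals (0.03).

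DNA polymerase delta extends the lagging strand. Its small subunit genes POL31 (YJR006W) and POL32 (YJR043C) rose by 1.25 ± 0.17 and 1.15 ± 0.14, and POL3 (YDL102W), the catalytic subunit gene, by 0.64 ± 0.12. POL31 stood at 35.6, 30.4 and 31.7 CPM at 40 fL, at 70.3, 82.3 and 80.6 CPM at 60 fL and at 63.9, 52.6 and 68.5 CPM at 75 fL. The 60 fL libraries were the highest and the 40 fL libraries the lowest, without overlap. POL3 stood at 97.5, 92.9 and 100.1 CPM at 40 fL, at 146, 154 and 154 CPM at 60 fL and at 108, 88.0 and 109 CPM at 75 fL. The high values of POL3 at 60 fL stood clear of both other sizes, which overlapped each other. With deposited TPM the change of POL3 was 0.23 and was not called.

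DNA polymerase epsilon extends the leading strand. POL2 (YNL262W, catalytic subunit) rose by 2.31 ± 0.27, DPB2 (YPR175W, an essential subunit that also contacts GINS) by 1.61 ± 0.21 and DPB3 (YBR278W, a small histone-fold subunit) by 0.70 ± 0.14. POL2 stood at 131, 89.1 and 99.1 CPM at 40 fL, at 527, 522 and 538 CPM at 60 fL and at 316, 238 and 341 CPM at 75 fL. All 3 sizes of POL2 were apart, and the spread at 60 fL was small. DPB3 stood at 8.88, 9.92 and 8.36 CPM at 40 fL, at 12.5, 16.7 and 14.9 CPM at 60 fL and at 9.37, 11.7 and 12.4 CPM at 75 fL. The 40 and 60 fL groups of DPB3 did not overlap, and the 75 fL libraries reached almost to the lowest 60 fL library. DPB3 was not called with deposited TPM (0.27). DPB4, the fourth subunit gene, which is also part of a chromatin remodeller, was on the list of other fork genes and fell by 0.96 ± 0.18 (adjusted p = 2.09e-04).

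PCNA is a ring that slides on DNA and holds the polymerases, and RFC is the complex that opens and loads it. POL30 (YBR088C, PCNA) was the most variable gene of the set, and the RFC genes split. POL30 stood at 4.55, 1.33 and 2.29 CPM at 40 fL, where its counts were 130, 32 and 54 reads, at 68.9, 71.5 and 80.6 CPM at 60 fL and at 33.3, 31.6 and 39.1 CPM at 75 fL. The 3 sizes were far apart, and the 40 fL libraries differed among themselves by more than those at any other of these sizes on the log2 scale. The rise of 4.73 ± 0.52 (adjusted p = 1.39e-06) is a 26.6-fold change. RFC4 (YOL094C) stood at 44.9, 46.1 and 45.1 CPM at 40 fL, at 43.5, 45 and 44.5 CPM at 60 fL and at 36.7, 34.4 and 35.7 CPM at 75 fL. The 40 and 60 fL libraries of RFC4 overlapped and those at 75 fL lay below both.

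The other small RFC subunit genes RFC3 (YNL290W) and RFC5 (YBR087W) rose by 1.83 ± 0.16 and 1.58 ± 0.20 from 40 to 60 fL, and RFC1 (YOR217W), the large subunit gene, by 0.65 ± 0.08. RFC2 (YJR068W, 0.14 ± 0.08, adjusted p = 0.149) and RFC4 (-0.03 ± 0.10, adjusted p = 0.780) were not called, and with deposited TPM both were called lower, at -0.26 and -0.43. RFC1 stayed high after 60 fL: its mean went from 80.8 ± 1.84 CPM at 40 fL to 127 ± 3.69 at 60 fL, 131 ± 6.62 at 65 fL and 130 ± 5.03 at 75 fL (SD, n = 3). RFC5 and POL30 are neighbours on chromosome II, at 423765 to 424829 on the plus strand and 424990 to 425766 on the minus strand, with their ends 160 bases apart. How strand was handled in counting is not given, so reads running past either end could fall in the other gene.

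RPA binds single-stranded DNA, and its genes rose as a group. RFA1 (YAR007C, large subunit) rose by 2.48 ± 0.24, RFA2 (YNL312W, middle subunit) by 2.46 ± 0.30 and RFA3 (YJL173C, small subunit) by 2.06 ± 0.29. RFA1 stood at 46.5, 41.7 and 44.2 CPM at 40 fL, at 242, 239 and 257 CPM at 60 fL and at 122, 107 and 144 CPM at 75 fL. RFA3 stood at 21.6, 17.1 and 17.4 CPM at 40 fL, at 78.9, 77.3 and 78.7 CPM at 60 fL and at 51.6, 42.0 and 53.2 CPM at 75 fL. For both genes the 3 sizes were apart, with 60 fL highest and 40 fL lowest.

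The genes for the last steps of lagging-strand synthesis moved alike. RAD27 (YKL113C), whose product cuts the flap off each fragment, and CDC9 (YDL164C), the DNA ligase that seals it, rose by 2.68 ± 0.32 and 2.64 ± 0.33. RAD27 stood at 30.3, 21.8 and 22.6 CPM at 40 fL, at 146, 173 and 160 CPM at 60 fL and at 86.9, 67.2 and 94.3 CPM at 75 fL. CDC9 stood at 31.4, 24.6 and 25.1 CPM at 40 fL, at 155, 173 and 179 CPM at 60 fL and at 93.5, 76.8 and 111 CPM at 75 fL. In both genes the 75 fL libraries lay between the others without overlap.

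Among GINS and the proteins that bring it to origins, directions differed. Of these 7 genes 3 were called higher at 60 than at 40 fL, 3 lower and 1 neither way, shares near the 30.9% higher and 34.2% lower of all tested genes. SLD2 (YKL108W), a target of the S-phase cyclin kinase that binds DPB11, rose by 2.13 ± 0.24, and PSF3 (YOL146W) and PSF2 (YJL072C), both GINS subunits, rose by 1.24 ± 0.16 and 0.43 ± 0.10. The other GINS subunit genes PSF1 (YDR013W) and SLD5 (YDR489W) fell by 0.21 and 0.37, with SEs of 0.09 and 0.13. SLD3 (YGL113W), which encodes another target of that kinase, did not pass (-0.04 ± 0.08, adjusted p = 0.697).

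SLD2 stood at 13.8, 11.4 and 12.1 CPM at 40 fL, at 53.1, 52.3 and 57.9 CPM at 60 fL and at 33.5, 25.9 and 35.7 CPM at 75 fL. DPB11 (YJL090C) stood at 93.6, 95.6 and 99.4 CPM at 40 fL, at 59.7, 59.9 and 57.4 CPM at 60 fL and at 54.8, 49.3 and 52.4 CPM at 75 fL. So SLD2 was lowest and DPB11 highest in the smallest cells, and in both genes the 3 sizes did not overlap. At 50 fL DPB11 stood at 58.6, 91.2 and 59.6 CPM, so that replicate 2, low for most fork genes, was high for this one. The call of PSF1 was fragile: its adjusted p of 0.0389 rose above the threshold with RLE factors, with DESeq2, with no filter and without the libraries that stood apart. It also did so without replicate 1 at 40 fL (0.182), 55 fL (0.0597) or 60 fL (0.132), replicate 3 at 40 fL (0.0676) or replicate 2 at 60 fL (0.0842), and the call of PSF2 ended with library totals (0.17) and deposited TPM (0.02).

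Fork-associated factors rose together. CTF4 (YPR135W), which ties polymerase alpha to the helicase, rose by 2.56 ± 0.27, MRC1 (YCL061C), a mediator of the replication checkpoint, by 2.48 ± 0.29, TOF1 (YNL273W) by 2.23 ± 0.28 and its partner CSM3 (YMR048W) by 2.12 ± 0.26. TOF1 and CSM3 form the complex that stabilises paused forks. CTF4 stood at 35.5, 27.7 and 26.6 CPM at 40 fL, at 160, 190 and 179 CPM at 60 fL and at 95.6, 85.9 and 113 CPM at 75 fL. CSM3 stood at 12.6, 8.88 and 9.00 CPM at 40 fL, at 44.3, 42.9 and 45.3 CPM at 60 fL and at 27.9, 24.2 and 32.6 CPM at 75 fL. Neither gene had overlapping libraries among these sizes.

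The kinase that fires origins is made of CDC7 and DBF4, and its genes had a median change of 0.48. DBF4 (YDR052C), the regulatory subunit gene, rose by 0.53 ± 0.08 and CDC7 (YDL017W), the catalytic subunit gene, by 0.43 ± 0.13. DBF4 stood at 88.4, 91.5 and 90.3 CPM at 40 fL, at 129, 136 and 124 CPM at 60 fL and at 122, 104 and 115 CPM at 75 fL. CDC7 stood at 18.0, 14.5 and 16.6 CPM at 40 fL, at 22.0, 22.7 and 21.5 CPM at 60 fL and at 16.6, 14.6 and 18.0 CPM at 75 fL. Both were higher at 60 than at 40 fL in every library, and CDC7 at 75 fL overlapped its 40 fL range. With deposited TPM neither was called (0.12 for DBF4 and 0.02 for CDC7), and with library totals CDC7 was not (0.17).

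**Figure D3:**
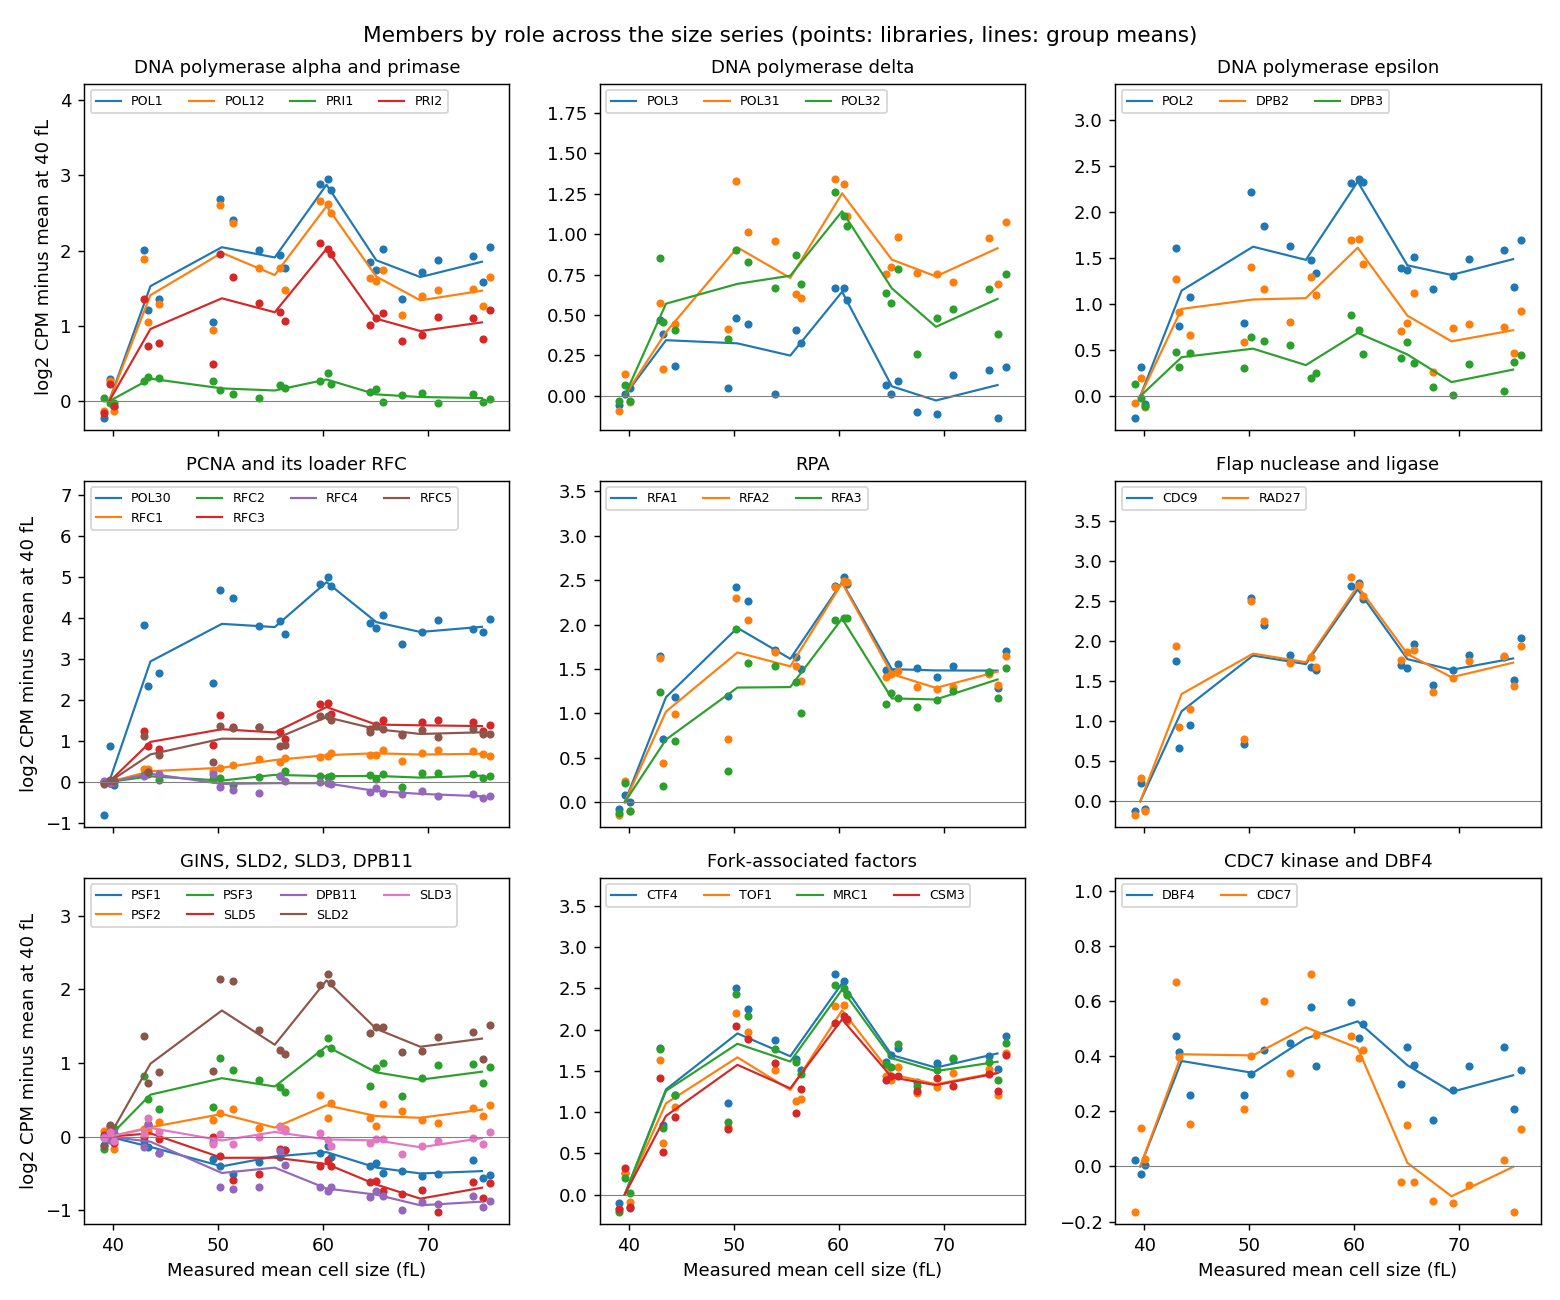
Level of each gene against the measured mean cell size in fL, as log2 CPM minus the gene's mean at 40 fL, with 1 panel per role, points for the 24 libraries and lines through the group means. Most lines climb from 40 fL to a highest point at 60 fL, RFC1 stays level after 60 fL, and PSF1, SLD5 and DPB11 descend; panels have their own vertical scales.

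The smaller part of the series held most of the rise. From 40 to 50 fL 28 of the 34 genes were called higher and 2, PSF1 (-0.41 ± 0.09) and DPB11 (-0.46 ± 0.14), lower, where 32.8% of all tested genes were called higher and 24.2% lower. Their median change was 1.10, beside 0.05 for all genes. With library totals 21 were called higher and 6 lower, and with deposited TPM 20 and 6, under which PRI1, POL3, RFC1, PSF2 and DBF4 stood below their 40 fL level. Weak calls rested on single libraries: without 50 fL replicate 1 those of DPB11 (adjusted p = 0.0700), POL3 (0.104), CDC7 (0.0926) and PSF2 (0.0593) ended, and without 50 fL replicate 3 those of DPB11 (0.0647) and POL3 (0.118). The call of POL3 also ended without 40 fL replicate 1 (0.0503) or 2 (0.0778), of CDC7 without 40 fL replicate 2 (0.0702) and of PSF2 without 40 fL replicate 3 (0.0814), and the call of PRI1 (0.17 ± 0.07) held in 15 of 34 settings.

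For the 21 genes that rose by at least 1 from 40 to 60 fL, the half-rise size was read off the lines between group means as the size at which the log2 level first reached the midpoint between its 40 fL mean and its highest group mean. Its median was 43.8 fL, and it ran from 42.9 fL for POL30 to 47.4 fL for RFA3. All 21 reached it below 50 fL and 16 of them below 45 fL. With library totals or deposited TPM, PRI2, CSM3, PSF3 and POL32 moved above 45 fL. POL32 then stood at 50.1 and 54.4 fL, and PSF3 at 47.8 and 56.3 fL. Without 50 fL replicate 3 RFA3 moved to 51.5 fL. CDC9 and RFA2, at 45.5 and 45.7 fL, came later than POL1 and RAD27, at 43.3 and 43.6 fL. The replicates within a size group spread by 0.90 fL on average. With 1 library left out POL1 ran from 42.8 to 45.2 fL and RAD27 from 42.9 to 46.3 fL. CDC9 ran from 43.6 to 47.7 fL and RFA2 from 43.5 to 47.6 fL, so these ranges overlapped. Leaving out 45 fL replicate 2, whose mean over the 34 genes was 1.05 against 0.66 and 0.55 in its replicates, moved the median to 46.1 fL. RFC1, with a smaller rise, reached its midpoint at 50.5 fL.

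Between 50 and 60 fL few fork genes were called. RFC1 (0.31 ± 0.08, adjusted p = 0.0275) and RFC3 (0.51 ± 0.15, adjusted p = 0.0411) were called higher and no fork gene lower, where 3.98% of all tested genes were called higher and 6.11% lower. The median change was 0.43, beside -0.09 for all genes. For 18 of the 34 genes all 60 fL libraries lay above all 50 fL libraries, where this held for 14.4% of all tested genes. A higher level of the fork genes at 60 fL is here too partly given by the choice of that group. The count called higher was 0 without 50 fL replicate 2 or any 1 of the 60 fL libraries, 8 without 50 fL replicate 3, and 1 without any 1 of the 40 or 65 fL libraries or 75 fL replicate 3.

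The 55 fL libraries lay below those at 60 fL, a comparison added after these values were seen. Its direction was therefore known before the test. RFC3 (0.62 ± 0.15), RFA1 (0.86 ± 0.23), PSF3 (0.55 ± 0.16), SLD2 (0.87 ± 0.23) and TOF1 (0.96 ± 0.27) were called higher at 60 than at 55 fL and no fork gene lower, where 1.44% of all tested genes were called higher and 3.36% lower. For 25 of the 34 genes the 60 fL libraries lay above all 55 fL libraries, where this held for 17.1% of all tested genes. The median change was 0.55, beside -0.02 for all genes. The count of 5 rested on single libraries: it was 0 without 55 fL replicate 1 or 3 or any 1 of the 60 fL libraries, and 23 without 50 fL replicate 2, which enters through the shared estimate of spread; the all-gene count called higher went from 92 to 399 there. It was 18 without 55 fL replicate 2, 9 to 17 without 45 fL replicate 2 or 3 or 50 fL replicate 1 or 3, 3 without 45 fL replicate 1 or 75 fL replicate 2, and 1 without any other library except 70 fL replicate 1, which left it at 5.

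After 60 fL the fork genes were lower again, though few passed the test. The 60 fL group was compared because earlier results of these data put the highest mean there. A lower level after it is therefore partly given by that choice. POL12, which stood at 166 ± 8.95 CPM at 60 fL and 76.5 ± 10.2 CPM at 75 fL (SD, n = 3), fell by 1.12, with an SE of 0.28 (adjusted p = 0.0269). The other genes called lower were RFA1 (-0.99 ± 0.23), PRI2 (-0.97 ± 0.24), DPB2 (-0.89 ± 0.21), POL3 (-0.57 ± 0.12) and POL32 (-0.54 ± 0.14). That made 6 of 34 lower and 0 higher, where 2.01% of all tested genes were called lower and 2% higher. The median change was -0.55, beside 0.05 for all genes.

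For 30 of the 34 genes every 75 fL library lay below every 60 fL library, where this held for 17.2% of all tested genes. The exceptions were RFC1, RFC2, PSF2 and SLD3, whose changes lay between -0.06 and 0.04. POL30 stood at -1.09 ± 0.43 and POL1 at -1.01 ± 0.29, and neither was called (adjusted p = 0.176 and 0.0532). The count of 6 became 3, 1 and 0 when replicate 1, 2 or 3 at 60 fL was left out, 1, 0 and 4 when replicate 1, 2 or 3 at 75 fL was, and 22 and 11 when replicate 2 or 3 at 50 fL was. It was 17 with DESeq2 and 30 without the 5 libraries that stood apart. The count of all genes called lower moved as well, from 129 to 277 with DESeq2, to 814 without the libraries that stood apart and to 255 without 50 fL replicate 2.

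**Figure D4:**
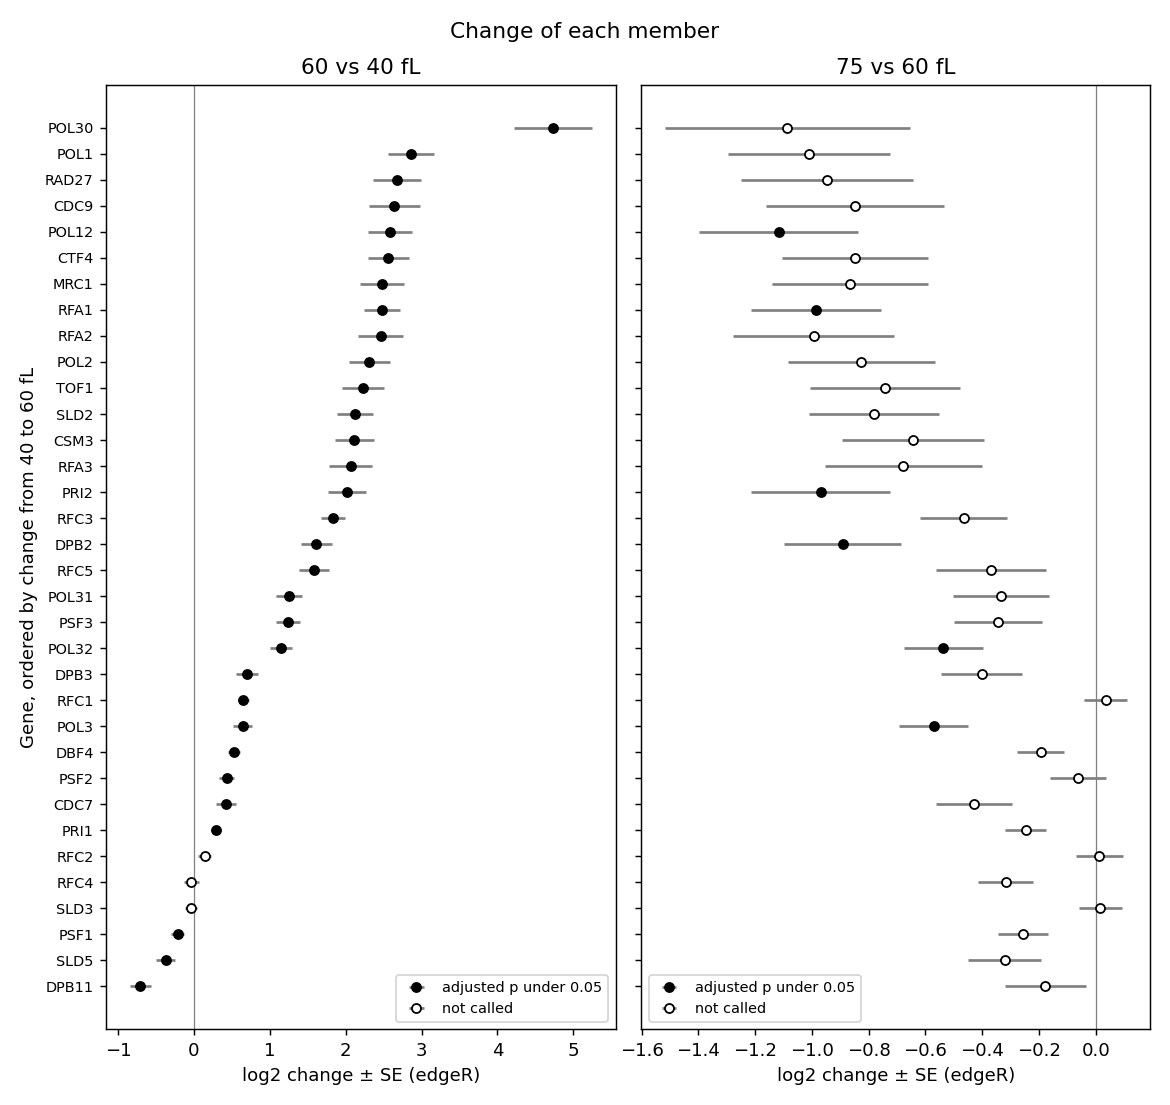
Change of each gene from 40 to 60 fL (left) and from 60 to 75 fL (right) as log2 change ± SE, with genes in the same order in both panels and filled points for an adjusted p under 0.05. On the left 28 filled points lie above 0 and 3 below, and on the right 6 are filled, all below 0; with deposited TPM the points of PRI1 and RFC2 on the left lie below 0.

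The ends of the series still differed. At 75 fL 24 of the 34 genes were called higher than at 40 fL and 4 lower, where 31% of all tested genes were called higher and 30.2% lower. The median change was 0.98, beside -0.01 for all genes. With library totals 21 were called higher and 6 lower, and with deposited TPM 20 and 9. POL30 (3.65 ± 0.50), POL1 (1.85 ± 0.29) and CDC9 (1.79 ± 0.32) were the furthest above, and the genes called lower were DPB11 (-0.88 ± 0.14), SLD5 (-0.69 ± 0.13), PSF1 (-0.47 ± 0.09) and RFC4 (-0.35 ± 0.10). POL3 (0.07 ± 0.12), PRI1 (0.04 ± 0.07), DPB3 (0.30 ± 0.14), CDC7 (-0.0024 ± 0.13), RFC2 (0.15 ± 0.08) and SLD3 (-0.02 ± 0.08) were not called, and PSF2 (0.37 ± 0.10) and DBF4 (0.33 ± 0.08) turned to -0.06 and -0.10 with deposited TPM.

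Levels of different genes can be compared only per length, for which the deposited TPM were used. At 60 fL RFA3 was the highest of the 34 at 197 ± 3.81 TPM, followed by RFA2 at 133 ± 3.17, RAD27 at 129 ± 14.1 and RFA1 at 122 ± 5.94 (SD, n = 3). Both RFA2 and RFA1 lay within 1 SD of RAD27, whose place among them is not clear. POL30 stood at 88.1 ± 8.61 TPM at 60 fL, above 78.4% of tested genes, and at 4.29 ± 2.53 TPM at 40 fL, above 4.90% of them. CDC7 was the lowest at 60 fL, at 13.4 ± 0.632 TPM, below SLD3 at 19.2 ± 1.69 and SLD5 at 21.4 ± 1.04, whose mean ± SD ranges overlapped.

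At 40 fL the order was another one. RFC2 was the highest at 67.8 ± 2.20 TPM, then RFA3 at 62.3 ± 7.28, RFC4 at 57.5 ± 1.56, DBF4 at 52.4 ± 1.68 and DPB11 at 51.6 ± 2.24, and POL30 the lowest. The mean ± SD range of RFA3 overlapped those of RFC2 and RFC4, and those of DBF4 and DPB11 overlapped, so their places are not clear. Subunits of 1 complex could be unequal: PRI1 and PRI2, the primase genes, stood at 42.5 ± 1.57 and 29.2 ± 3.75 TPM at 40 fL and at 39.2 ± 2.70 and 89.4 ± 6.83 TPM at 60 fL. The GINS genes PSF1, PSF2, PSF3 and SLD5 stood at 48.2, 31.2, 19.6 and 36.7 TPM at 40 fL and at 31.4, 31.7, 34.8 and 21.4 TPM at 60 fL. So PSF3 was the lowest GINS gene at 40 fL, and at 60 fL its mean ± SD range overlapped those of PSF1 and PSF2 (SDs of 2.27 to 3.77).

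**Figure D5:**
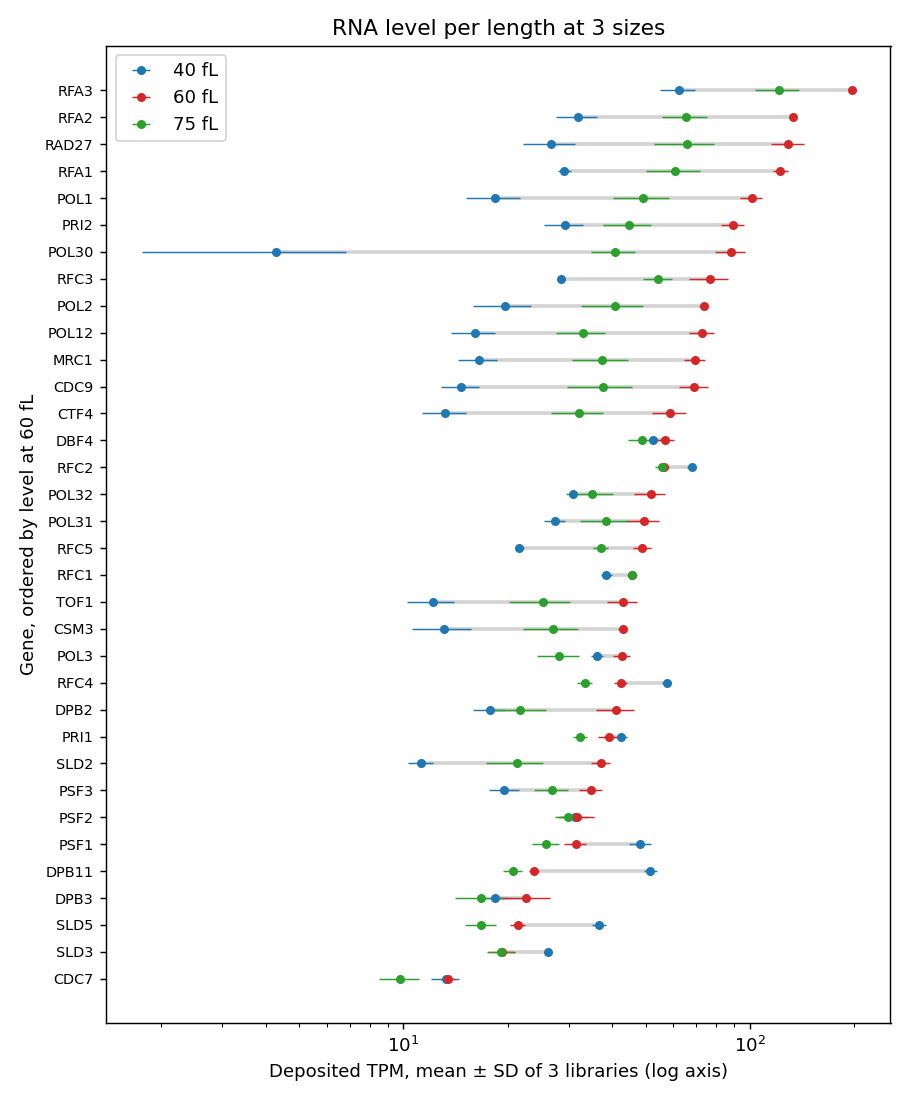
Deposited TPM of the 34 genes at 40, 60 and 75 fL, mean ± SD of 3 libraries on a log axis, ordered by the level at 60 fL. RFA3 is at the top with 197 TPM at 60 fL and CDC7 at the bottom with 13.4, and POL30 covers the widest span, from 4.29 to 88.1.

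The genes followed the set to different degrees over the 24 libraries. The correlation of a gene's log2 CPM with the mean of the other 33 genes was highest for POL1 (Pearson r = 0.997), POL2 (0.994) and RAD27 (0.993), and was -0.61 for DPB11, -0.40 for PSF1, -0.39 for SLD5, -0.22 for RFC4 and -0.04 for SLD3. Among the 4875 genes ranked outside the set, SMC1 (0.994), ELG1 (0.993) and SMC3 (0.991) were the most like the mean of the 34. SMC1 and SMC3 encode subunits of cohesin, and ELG1 encodes part of a complex that unloads PCNA. These values are a description over libraries that share their size groups, and they carry no test.

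Other genes of replication were read from lists. Of 17 further fork genes 13 were called higher at 60 than at 40 fL and 2 lower, with a median of 0.89, where 30.9% of all tested genes were called higher and 34.2% lower. CDC45, a helicase subunit gene, rose by 3.09 ± 0.34, CTF18, part of an alternative clamp loader, by 2.59 ± 0.31, and TOP2, a topoisomerase gene, by 1.96 ± 0.23, while DPB4 and SLD7, whose product partners SLD3, fell by 0.96 and 0.56. Of 14 genes that license origins 3 were called higher, namely CDC6 (1.84 ± 0.23), ORC1 (0.96 ± 0.16) and MCM7 (0.76 ± 0.15), and 4 lower, namely TAH11 (-0.51 ± 0.16), MCM3 (-0.50 ± 0.15), MCM5 (-0.44 ± 0.14) and ORC5 (-0.41 ± 0.12), with a median of 0.09. Neither count of the licensing genes is above the all-gene share.

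Genes for the supply of DNA precursors were called higher from 40 to 60 fL in 8 of 9 cases, beside the same 30.9% of all tested genes, with a median of 0.82. RNR1, a large subunit gene of ribonucleotide reductase, rose by 4.95 ± 0.53 and CDC21, the thymidylate synthase gene, by 3.68 ± 0.40, while RNR2 and RNR4, the small subunit genes, rose by 0.84 ± 0.10 and 0.66 ± 0.12. SML1, an inhibitor of that enzyme, was at 0.31 ± 0.17 and was not called.

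A list of 8 landmark genes of the division cycle was read beside the fork genes, and some of them are given here. The G1 cyclin gene CLN2 stood at 8.55 ± 3.54 CPM at 40 fL, 301 ± 24.7 at 60 fL and 146 ± 29.3 at 75 fL, and the S-phase cyclin gene CLB6 at 1.28 ± 0.950, 74.6 ± 3.71 and 39.3 ± 4.96 CPM (SD, n = 3). Both were highest at 60 fL, as most fork genes were. The mitotic cyclin gene CLB2 stood at 80.2 ± 13.1 CPM at 60 fL and 217 ± 21.2 CPM at 75 fL, and the histone gene HTB2 at 517 ± 89.4 and 507 ± 116 CPM. From 60 to 75 fL CDC20, which encodes an activator of the anaphase-promoting complex, rose by 1.48 ± 0.34 (adjusted p = 0.0170), while CLB2 at 1.44 ± 0.46 (0.0872) and HTB2 at -0.03 ± 0.49 (0.984) were not called. CDC20 was the only gene of the 8 called, where 2% of all tested genes were called higher. The median change of the 8 was -0.43.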

How the data were processed

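RNA of 24 pools was sequenced. The count table holds reads per feature that the authors assigned to build R64, with featureCounts (Subread) named in the submitters' processing notes, and the TPM table holds deposited values scaled by feature length within each library. The sources used here give neither aligner nor software versions nor settings for strand and multiply mapped reads. No fork gene overlaps another annotated gene or holds a 31-base word repeated in the genome.

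Libraries were grouped by the nearest multiple of 5 fL and numbered in record order. The labels call the replicates biological and give no number that links sizes. Counts were tested with edgeR 4.0.16 (R 4.3.3): TMM factors, filterByExpr, 1 coefficient per size, robust quasi-likelihood F test, Benjamini-Hochberg over 6402 genes, called under 0.05. The SE is the absolute log2 change over the square root of F. The common biological coefficient of variation was 0.179. Comparisons share libraries. Log2 CPM used a prior count of 2. On data simulated for 60 against 40 fL (6366 genes), 81% of changes of 1 and 97% of changes of 2 on the log2 scale were recovered, and 2.2% of calls were false. In that simulation 100 genes changed by each amount, as many up as down, and no library was made to stand apart. Far more genes were called in the data, so these rates need not hold there.

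Alternatives were RLE factors, library totals, DESeq2 1.42.0, limma-voom (limma 3.58.1), deposited TPM plus 1 or 0.1 with limma, no filter, a filter of 1 CPM in 3 libraries, the 67.5 fL library in the 65 fL group, the libraries that stood apart left out, and each library left out in turn. The comparison of 60 with 55 fL was added after seeing the values. Per-library values are given for the genes with the largest and smallest change from 40 to 60 fL in each role, and promoters for the 3 largest rises and the 2 lowest values. Likeness was ranked among genes of at least 10 CPM on average with a symbol. RefSeq promoter tables had been planned, and the windows were read from the R64 sequence instead. The genes, the lists and the 60 fL group as a point of comparison were chosen with earlier results of these data known. A rise up to 60 fL and a fall after it are partly given by that choice. Protein and metabolite data were not analysed here.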

Additional observations from a re-analysis of the deposited data

How the results depend on the processing

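Counts of fork genes called are given first. From 60 to 75 fL the 6 called lower became 10 with RLE factors, 17 with DESeq2, 11 and 10 with deposited TPM plus 1 and plus 0.1, 10 with no filter and 30 without the libraries that stood apart, and 0 to 22 with 1 library left out. From 40 to 50 fL the 2 called lower became 6 with library totals, 6 with either TPM setting, 4 without the libraries that stood apart, and 1 to 3 with 1 library left out. The 28 called higher there ran from 25 to 28 with 1 library left out and from 20 to 28 with the other settings. From 40 to 60 fL the 3 called lower became 5 with library totals, 6 with either TPM setting, and 2 to 3 with 1 library left out. The 28 called higher there stayed at 28 with any library left out and ran from 22 to 29 with the other settings. From 50 to 60 fL the 2 called higher became 9 with DESeq2, 1 with either TPM setting, 4 without the libraries that stood apart, and 0 to 8 with 1 library left out. From 55 to 60 fL the 5 called higher became 2 with library totals, 21 with DESeq2, 2 with limma-voom, 0 with either TPM setting, 3 with no filter, 25 without the libraries that stood apart, and 0 to 23 with 1 library left out, and the 0 called lower became 1 without the libraries that stood apart and 0 to 1 with 1 library left out. From 40 to 75 fL the 4 called lower became 9 with either TPM setting. The 24 called higher there ran from 24 to 25 with 1 library left out and from 20 to 24 with the other settings. The median half-rise size of 43.8 fL became 44.8 fL with library totals and 43.1 to 46.1 fL with 1 library left out. Direction turned for these genes. RFC4 from 40 to 60 fL was 0.0014 with RLE factors, 0.0015 with DESeq2, 0.030 with no filter and 0.0014 without the libraries that stood apart. SLD3 from 40 to 60 fL was 0.027 with no filter, 0.039 without the libraries that stood apart, and -0.083 to 0.0067 with 1 library left out, the latter without 60 fL replicate 1. RFC2 from 40 to 60 fL was -0.12 with library totals and -0.26 and -0.27 with TPM plus 1 and plus 0.1. PRI1 was -0.074 with library totals and -0.21 with either TPM setting from 40 to 50 fL, and -0.12 with either from 40 to 60 fL. With either TPM setting POL3 was -0.060 and -0.062, RFC1 -0.040 and -0.041, PSF2 -0.074 and -0.076, and DBF4 -0.046 and -0.047 from 40 to 50 fL, and PSF2 was -0.064 and -0.066 and DBF4 -0.10 and -0.11 from 40 to 75 fL. The causes were not tested. Over all genes library totals gave 1219 higher and 2518 lower from 40 to 50 fL, 1342 and 3067 from 40 to 60 fL, and 1221 and 2941 from 40 to 75 fL, and TPM plus 1 gave 883 and 3161, 1059 and 3636, and 928 and 3595. With 1 library left out the all-gene counts ran from 0 to 362 higher and 1 to 695 lower from 50 to 60 fL, 0 to 573 and 0 to 1313 from 55 to 60 fL, and 44 to 211 and 36 to 255 from 60 to 75 fL. With DESeq2 and without the libraries that stood apart, 620 and 866 of all genes were called higher from 50 to 60 fL, 375 and 1809 from 55 to 60 fL, and 277 and 814 lower from 60 to 75 fL. No paired analysis was possible because the labels give no number that links libraries of different sizes. With 3 libraries a size, changes of the size of the SEs given cannot be told from 0, and POL30 at 40 fL rests on 32 to 130 reads.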

Other observations

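Outside the 34 genes, the 10 whose log2 CPM followed the fork genes' mean most closely over the 24 libraries were SMC1, ELG1 and SMC3, then VAC14 (r = 0.991), RBH2 (0.990), CDC45 (0.989), IRR1 (0.989), PMS1 (0.988), MSH6 (0.987) and RAD53 (0.987). IRR1 encodes a cohesin subunit, PMS1 and MSH6 encode mismatch repair proteins, RAD53 encodes the checkpoint kinase of replication stress, and VAC14 acts in phosphoinositide synthesis at the vacuole. Between 40 and 60 fL IRR1 rose by 3.29 ± 0.35, RAD53 by 2.65 ± 0.31, RBH2 by 2.56 ± 0.28, PMS1 by 2.55 ± 0.31, MSH6 by 2.53 ± 0.34 and VAC14 by 1.17 ± 0.12 on the log2 scale. These genes were picked by their likeness, so their rise is a description.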
